A study of Caenorhabditis elegans with 9 samples.

Results

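Reads complementary to piRNAs, counted on the strand opposite to the piRNA itself, were described in whole adult hermaphrodites of Caenorhabditis elegans for the piRNA entries on which they outnumbered the sense reads. Of 15913 entries of piRNAdb, a database of piRNA sequences, 1538 had an antisense read and 118 were members of this group. Members were chosen by measured read sums: an entry had to have at least 10 antisense reads over the 9 libraries, more antisense than sense reads, and fewer than 25 sense reads in wild type and RNase-dead together. The surplus of antisense over sense reads is a property of the choice. The genotype comparisons of antisense rates were not part of the rule. A member without a read in a genotype, however, reached 10 reads solely through the other genotypes, and so had to differ between them.

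piRNAs of this nematode are short RNAs bound by PRG-1, the Piwi-clade Argonaute encoded by prg-1. Bound piRNAs recognise transcripts by base pairing, and RNA-dependent RNA polymerases then make secondary small interfering RNAs on the recognised transcript. Secondary small RNAs are antisense to the transcript they are made on, so a transcript that carries a piRNA sequence in the sense direction can yield reads antisense to that piRNA. In the Ensembl annotation of the WBcel235 assembly all 15363 piRNA genes are 21 bases long, 347 of them (2.26%) lie wholly inside an exon of a protein-coding gene on the same strand, and 575 (3.74%) overlap a piRNA gene on the opposite strand. The tables name entries by piRNAdb number, and sequences and positions of the members were not used here, so it was not tested which members have such a position.

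The groups were wild type, prg-1(Rnase-dead), named for a lost RNase activity and called RNase-dead here, and prg-1(∆PAZ-domain), called PAZ-deletion here. The PAZ domain of an Argonaute binds the 3′ terminus of its small RNA. Each had 3 libraries from pools of 20 to 30 animals kept at 25 °C and collected as adults, 24 h past the mid-L4 stage. RNA was total small RNA of whole animals, treated with a pyrophosphatase that lets RNAs carrying a 5′ triphosphate, such as secondary small RNAs, enter the libraries, and fewer cells of a type cannot be told apart from less RNA per cell. The labels name no strain background or allele, nothing says that replicates were separate cultures, and the growth text uses the word male once although the titles say hermaphrodite. Each library held between 1022428 and 3121968 genome-mapped reads, with 634 to 1650 antisense piRNA reads in wild type, 1092 to 1607 in RNase-dead and 408 to 750 in PAZ-deletion. Rates are in RPM, antisense reads per 1000000 reads mapped to the genome, as the study design scaled them, and 3 reads stood for 0.961 to 2.93 RPM. The PAZ-deletion libraries held 25.0% of all genome-mapped reads. The tables give no prg-1 transcript level that could check the genotypes.

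The 118 members held 6274 of the 9373 antisense reads in the table (66.9%), against 178 sense reads on the same entries. No sense read at all was counted for 72 members, 1 to 4 for 31, and 5 or more for 15. Reads were unevenly spread: cel-piR-1599 alone had 1223 antisense reads (19.5% of those of the members), the 10 most read members had 49.7%, and 52 members had 10 to 19 reads each. All 3 libraries of a genotype had a read for 70 members (wild type), 93 members (RNase-dead) and 36 members (PAZ-deletion). These counts depend on depth and were not scaled for it. In the same order the genotypes had 6907232, 7570832 and 4826091 genome-mapped reads. No member shared its counts in all 9 libraries with the sense or the antisense counts of another entry. At the edges of the rule, cel-piR-78, cel-piR-440 and cel-piR-1228 were members with 10 reads, while cel-piR-255, cel-piR-422 and cel-piR-669 were left out with 9. The smallest surplus among members was that of cel-piR-8205, with 10 antisense and 7 sense reads. Left out were cel-piR-6707 with 11 and 11, cel-piR-7927 with 38 and 43, and cel-piR-8767 with 74 and 83. The limit on sense reads removed no entry, and the member with most sense reads in wild type and RNase-dead, cel-piR-13313, had 12.

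Summed over all entries of the table, PAZ-deletion libraries had the lowest antisense rates. By library the antisense total of wild type was 555, 406 and 565 RPM, that of RNase-dead 515, 514 and 521, and that of PAZ-deletion 399, 354 and 399.9. All 3 PAZ-deletion libraries lay below every library of the other groups, while wild type and RNase-dead overlapped. The PAZ-deletion mean amounted to 75.6% of that in wild type, with a log2 difference of -0.39 ± 0.16 (SE, n = 3 per group; exact two-sided permutation p = 0.1, adjusted over 3 pairs 0.15). PAZ-deletion differed from RNase-dead by -0.43 ± 0.06 on the log2 scale (SE, exact permutation p = 0.1, adjusted 0.15), and RNase-dead from wild type by 0.04 ± 0.15 (SE, exact permutation p = 1.0). The smallest p that 3 libraries against 3 can give is 0.1. The sense total in PAZ-deletion was 39.1% of wild type by the same scaling.

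Antisense reads made up a larger share of all piRNA reads in PAZ-deletion. Their share of sense plus antisense reads in wild type was 8.55%, 11.0% and 10.4%. It was 7.17%, 8.34% and 7.86% for RNase-dead libraries and 19.2%, 16.1% and 16.9% for PAZ-deletion libraries. The widest exact 95% binomial interval, that of PAZ-deletion replicate 1, ran from 17.6 to 20.97% and covers counting error only. No library of one genotype lay within the range of another. The log2 difference was 0.80 ± 0.13 for PAZ-deletion against wild type, 1.16 ± 0.10 against RNase-dead and -0.36 ± 0.13 for RNase-dead against wild type (SE, n = 3 per group; exact permutation p = 0.1 for each, adjusted 0.1).

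In PAZ-deletion animals some members had hardly any antisense read, while others kept reads in every library. Of the 22 members with 50 or more reads, 8 were called lower in PAZ-deletion than in wild type or RNase-dead. Among all 127 tested entries 24, all of them members, were lower in at least 1 of these comparisons. Taken singly, 15.7% were lower against wild type and 17.3% against RNase-dead. Entries with more reads are more easily called, so these shares are not on equal terms. The 8 had 2 PAZ-deletion reads between them against 683 wild-type and 737 RNase-dead reads, and none had more than 1 PAZ-deletion read. Each of the other 14 had a read in every PAZ-deletion library and at least 12 in all. Their pooled rates ran from 0.417 to 1.79 times wild type, so the lack of a call does not mean an unchanged rate. No member of that depth lay between 1 and 12 PAZ-deletion reads, but the cut at 50 reads is not part of the rule. Members with fewer than 50 reads did lie there, such as cel-piR-4951 with 5 PAZ-deletion reads and cel-piR-8346 with 9. Calls are from edgeR's quasi-likelihood test on the antisense counts of the 127 entries that reached 10 reads and were read in 3 or more libraries, 118 of them members, with genome-mapped reads as library sizes and a Benjamini-Hochberg FDR under 0.05.

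Over all members, 20 were lower in PAZ-deletion than in wild type, 2 were higher and 96 were neither. Among all tested entries 15.7% were lower and 1.57% higher (17.3% in either direction), and since members make up 118 of the 127 this background is largely their own. None of the 9 tested entries outside the group was called in any comparison, but 9 are too few to set against the members. The same test on the sense counts of 1067 entries called 19.2% lower and 1.31% higher (20.5% in all). The median log2 fold change was -0.57 over the members and -0.57 over all tested entries, or -0.39 and -0.33 when the 30 members and 33 entries without a read in one genotype were given the bound that 3 counts allow. In 31 members all PAZ-deletion libraries lay below all wild-type libraries, against 25.2% of tested entries, and in 7 all lay above, against 6.3%. Of the 56 members with 10 or more reads in wild type itself, 19 were called lower. Choosing by wild-type reads favours entries that are high there, so this count tests nothing. No share over all tested entries was computed with that minimum. With library sizes taken from the piRNA reads, which fell in PAZ-deletion, 8 entries were lower and 6 higher, 42.9% higher against 9.09%, and the median of all entries moved from -0.57 to 0.55. Without PAZ-deletion replicate 2 or 3 the calls numbered 13 in place of 22, 11 lower and 2 higher in the first case and 13 lower in the second.

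**Figure D1:**
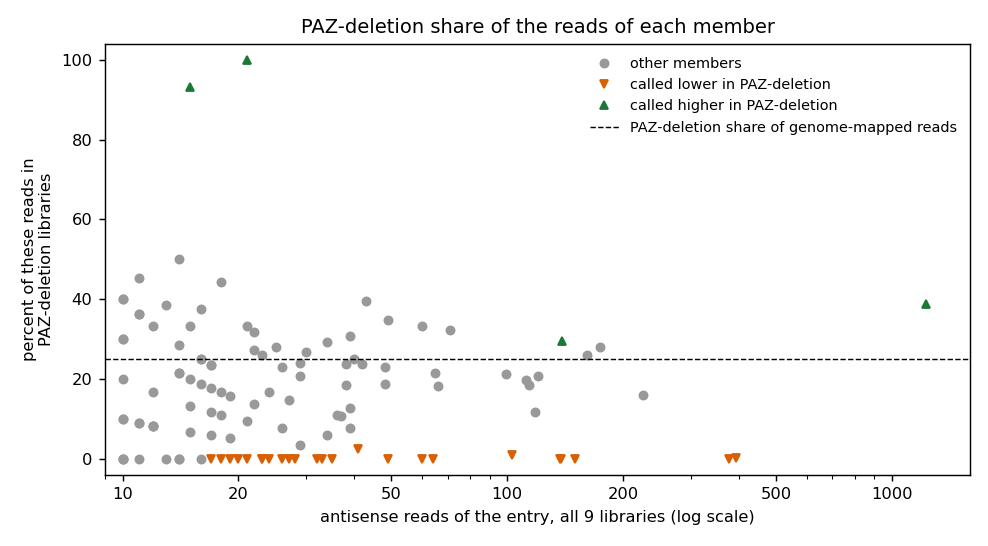
Percent of the antisense reads of each member that came from PAZ-deletion libraries, against the antisense reads of the member in all 9 libraries (log scale); each point is 1 of 118 members, and the dashed line is the PAZ-deletion share of genome-mapped reads, 25.0%. Downward triangles, members called lower in PAZ-deletion than in wild type or RNase-dead, lie at or near 0, and upward triangles, called higher, lie above the line.

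Among the members that fell, cel-piR-1259 had the most reads. It was at 26.8, 26.9 and 42.8 RPM in wild type, 17.6, 24.5 and 22.8 in RNase-dead and 0.978, 0 and 0 in PAZ-deletion. The lone PAZ-deletion read stood against 232 wild-type reads, a pooled rate 162-fold lower by counting error 28.8-fold to 6430-fold (log2 fold change -6.90 ± 0.77 SE, edgeR FDR 1.45e-16). The RNase-dead libraries also lay below wild type, but the log2 fold change of -0.58 was not called (edgeR FDR 0.881).

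The second, cel-piR-1090, had no read in PAZ-deletion. It was at 35.5, 17.3 and 28.4 RPM in wild type and at 24.3, 24.0 and 23.2 in RNase-dead, which overlapped. Counting 3 reads over the PAZ-deletion group as the floor, the loss was at least 45.6-fold relative to wild type (edgeR FDR 1.35e-16) and at least 38.5-fold relative to RNase-dead (edgeR FDR 1.38e-15).

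No PAZ-deletion read was counted for 3 more of the 10 most read members. The entry cel-piR-6514 was at 6.19, 10.9 and 12.7 RPM in wild type and 5.45, 11.8 and 16.8 in RNase-dead, and its loss relative to wild type was at least 16.1-fold (edgeR FDR 2.60e-08). The entry cel-piR-10514 was at 8.66, 3.20 and 8.90 RPM in wild type and 8.97, 13.7 and 12.5 in RNase-dead, a loss of at least 12.1-fold (edgeR FDR 1.03e-06). The entry cel-piR-2237 was at 7.84, 3.20 and 7.87 RPM in wild type and 9.29, 7.06 and 19.8 in RNase-dead, a loss of at least 10.9-fold (edgeR FDR 2.22e-06). All 3 were also called against RNase-dead, at least 17.2-fold, 18.3-fold and 19.1-fold lower. RNase-dead was above wild type in every library for cel-piR-10514 and overlapped it for the other two, and none of these differences between RNase-dead and wild type was called.

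**Figure D2:**
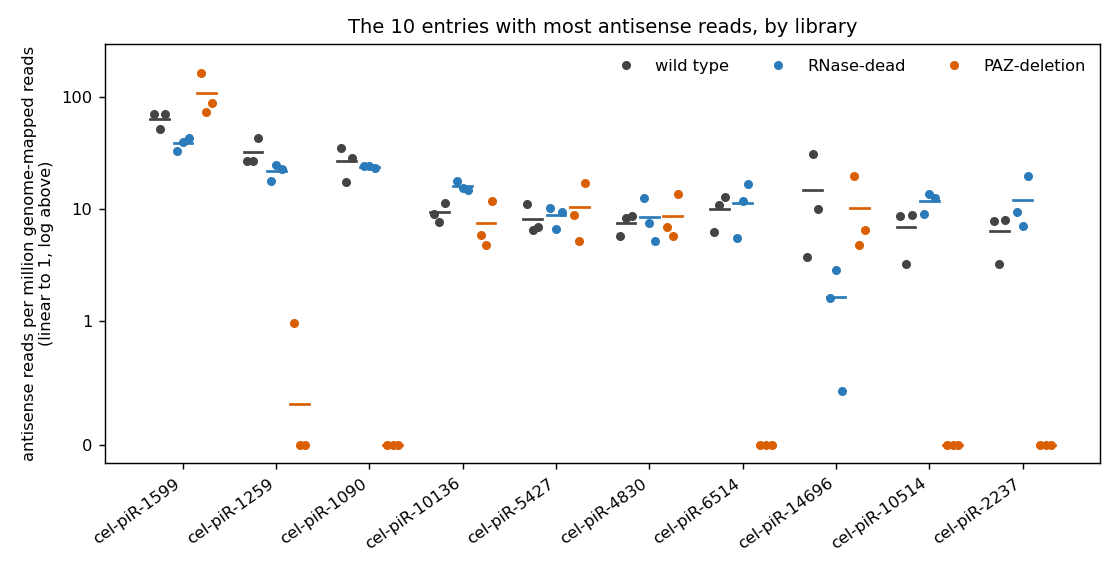
Antisense rate of the 10 members with most antisense reads in each library, as reads per 1000000 genome-mapped reads on an axis that is linear up to 1 and logarithmic above; points are libraries, 3 per genotype, and lines are their means. The entries cel-piR-1259, cel-piR-1090, cel-piR-6514, cel-piR-10514 and cel-piR-2237 lie at 0 in PAZ-deletion, apart from 1 library of cel-piR-1259 at 0.978, while the other 5 keep reads in all 3 PAZ-deletion libraries.

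The other members with 50 or more reads that fell were cel-piR-2120, named after its values were seen, cel-piR-208 and cel-piR-8799. The first was at 5.77, 7.04 and 5.48 RPM in wild type, 8.01, 7.06 and 9.03 in RNase-dead and 0.978, 0 and 0 in PAZ-deletion, 1 read against 41 of wild type (log2 fold change -4.49 ± 1.00 SE, edgeR FDR 0.000151). For cel-piR-208 wild type was at 7.42, 0.640 and 3.08 RPM and RNase-dead at 3.52, 4.24 and 6.88, and the loss of all reads in PAZ-deletion was at least 6.52-fold (edgeR FDR 0.000293). For cel-piR-8799 the rates were 2.06, 0.640 and 4.11 RPM in wild type and 6.09, 3.30 and 6.88 in RNase-dead, a loss in PAZ-deletion of at least 4.19-fold from wild type (edgeR FDR 0.00446). Its call against wild type was lost without wild type replicate 3, while over all libraries it was at least 8.92-fold lower than in RNase-dead (edgeR FDR 2.45e-05). The call against RNase-dead was kept with each library left out in turn.

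Of the members with fewer than 50 reads, 52 had 10 to 19 reads and 44 had 20 to 49. Among them 16, with 17 to 49 reads, were called lower in PAZ-deletion against wild type, RNase-dead or both. Of all 127 tested entries 24 were called so. No share over tested entries was computed below 50 reads, so the count does not set these members apart. The 16 had 1 PAZ-deletion read between them against 214 wild-type and 221 RNase-dead reads. The most read of these, cel-piR-4784, was at 5.77, 1.28 and 3.77 RPM in wild type, 3.52, 1.88 and 3.01 in RNase-dead and 0 in PAZ-deletion, a loss of at least 6.29-fold (edgeR FDR 0.000496). The bounds against wild type were at least 3.96-fold for cel-piR-1233, cel-piR-14460 and cel-piR-10312, 3.73-fold for cel-piR-4609, 3.49-fold for cel-piR-12293, 3.26-fold for cel-piR-5406 and 3.03-fold for cel-piR-3984. Those of cel-piR-2510 and cel-piR-1223 were at least 2.33-fold and 2.10-fold, and the second was called in 1 of 9 fits that each left out 1 library. A call against RNase-dead alone was made for 4 members, among them cel-piR-5160, at least 2.97-fold lower. Their rates in single libraries were mostly near or below that of 3 reads, and of the calls against wild type 9 held with each library left out in turn, those of cel-piR-1090, cel-piR-1259, cel-piR-6514, cel-piR-10514, cel-piR-2237, cel-piR-2120, cel-piR-208, cel-piR-4784 and cel-piR-1233. In all, 29 members had no PAZ-deletion read, 21 of them called lower and 8, with 10 to 16 reads, not called. These 29 reached 10 reads only through wild type and RNase-dead, so they had to lie below at least 1 of them. Members without a PAZ-deletion read made up 17 of the 20 lower calls against wild type and 19 of the 22 against RNase-dead. No read was counted for 1 member in wild type and for 2 in RNase-dead.

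Against RNase-dead the PAZ-deletion libraries showed 22 members lower, 4 higher and 92 neither, where 17.3% of tested entries were lower and 3.15% higher (20.5% in all), and sense counts gave 27.7% lower and 1.03% higher (28.8% in all). These calls share the PAZ-deletion libraries with those against wild type, and 18 members were lower in both. The median log2 fold change was -0.81 over the members and -0.80 over all tested entries, or -0.71 and -0.70 with the same bound for entries without a read in one genotype. All PAZ-deletion libraries lay below all RNase-dead libraries in 38 members, against 31.5% of tested entries, and above in 7, against 6.3%. With library sizes from piRNA reads 8 entries were lower and 15 higher, 65.2% higher against 15.4%, and the median of all entries moved from -0.80 to 0.66. Without PAZ-deletion replicate 2 the calls numbered 14, 11 lower and 3 higher, and without replicate 3 they numbered 15, 13 lower and 2 higher.

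**Figure D3:**
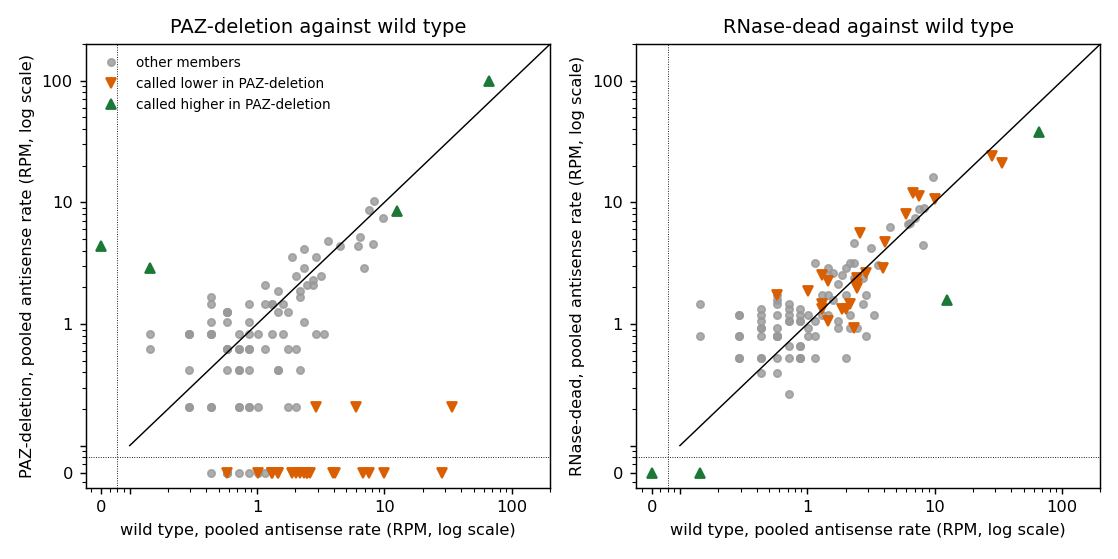
Pooled antisense rate of each of 118 members, summed over 3 libraries, in RPM on log scales, in PAZ-deletion (left) and RNase-dead (right) against wild type; entries with no read are drawn beyond the dotted lines at 0, and the diagonal marks equal rates. Members called lower in PAZ-deletion lie on the 0 line of the left plot or just above it and along the diagonal in the right plot.

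Members that kept their reads in PAZ-deletion included the most read one. The entry cel-piR-1599, without a sense read in any library, was at 70.9, 51.9 and 70.5 RPM in wild type, 33.3, 39.5 and 43.0 in RNase-dead and 166, 74.2 and 88.3 in PAZ-deletion. The 3 genotypes did not overlap, with PAZ-deletion highest, its replicate 1 far above the others, and RNase-dead lowest. PAZ-deletion was higher than RNase-dead by 1.496 ± 0.35 on the log2 scale (SE, edgeR FDR 0.000309), a call that held with each library left out in turn. It was lost with no filter (edgeR FDR 0.151) and with a replicate block in a fit of those groups alone (edgeR FDR 0.104). Neither the difference of PAZ-deletion from wild type (log2 fold change 0.75, edgeR FDR 0.12) nor that of RNase-dead (-0.74, edgeR FDR 0.847) was called. Without PAZ-deletion replicate 2 the first was called (log2 fold change 0.97, edgeR FDR 0.0433), and likewise with library sizes from piRNA reads (1.98, edgeR FDR 3.51e-07). This entry made up 12.5 to 12.8% of antisense piRNA reads in wild-type libraries, 6.47 to 8.25% in RNase-dead and 20.9 to 41.7% in PAZ-deletion. Summed with this entry, the members reached 71.7% of the wild-type rate in PAZ-deletion animals, and without it 49.7%.

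Among the 10 most read members, cel-piR-10136, cel-piR-5427 and cel-piR-4830 were not called in any comparison with genome-mapped library sizes and all 9 libraries in the fit. For cel-piR-10136 the rates were 9.07, 7.69 and 11.3 RPM in wild type, 17.6, 15.5 and 14.6 in RNase-dead and 5.87, 4.73 and 11.8 in PAZ-deletion. All RNase-dead libraries of this entry were above all others, at a log2 fold change of 0.75 against wild type (edgeR FDR 0.881). For cel-piR-5427 they were 11.1, 6.40 and 6.85 RPM, 10.2, 6.59 and 9.46, and 8.80, 5.20 and 17.2 in the same order of genotypes, and for cel-piR-4830 they were 5.77, 8.33 and 8.56 RPM, 12.5, 7.53 and 5.16, and 6.85, 5.67 and 13.6. In both the 3 genotypes overlapped, and PAZ-deletion replicate 3 was the highest PAZ-deletion library. The pooled rate in PAZ-deletion was 1.23 times wild type for cel-piR-5427 (counting interval 0.822 to 1.83) and 1.16 times for cel-piR-4830 (0.751 to 1.77). With library sizes from piRNA reads edgeR called PAZ-deletion higher for cel-piR-5427 against wild type (log2 fold change 1.56, FDR 0.0195) and RNase-dead (1.80, FDR 0.00312), and for cel-piR-4830 against RNase-dead (1.62, FDR 0.0101). A fit of PAZ-deletion and RNase-dead alone called cel-piR-10136 lower in PAZ-deletion (log2 fold change -1.08, edgeR FDR 0.0320). The 9 further members with 50 or more reads that were not called lower had pooled rates of 0.417 to 1.79 times wild type, and 7 of them overlapped wild type by library. Among all tested entries 25.2% lay wholly below wild type and 6.3% wholly above, the rest overlapping. These 9 were picked for not being called lower, so their overlap tests nothing.

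A pair of members had antisense reads almost only in PAZ-deletion. The entry cel-piR-11247 had 21 reads there, at 0.978, 4.25 and 6.52 RPM, and none in wild type or RNase-dead, a rate at least 10.02-fold that of wild type (edgeR FDR 0.000133) and at least 10.98-fold that of RNase-dead (edgeR FDR 4.85e-05). The entry cel-piR-1276 had 14 PAZ-deletion reads, at 2.93, 1.42 and 4.74 RPM, against a single wild-type read, and its pooled rate was 20.0 times as high, by counting error 3.05 to 847 times (edgeR FDR 0.00741). RNase-dead had none, and PAZ-deletion was at least 7.32-fold higher (edgeR FDR 0.000567). Both reached 10 reads only through PAZ-deletion and so had to differ, and neither could be tested without PAZ-deletion replicate 3, nor cel-piR-11247 without replicate 1 or 2. With no filter beyond 1 read the call of cel-piR-1276 against wild type was lost (edgeR FDR 0.105). DESeq2 did not call cel-piR-11247 under either scaling. Their sense reads were spread over the genotypes, with 2 wild-type, 4 RNase-dead and 3 PAZ-deletion reads for cel-piR-11247 and 3, 3 and 1 for cel-piR-1276.

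**Figure D4:**
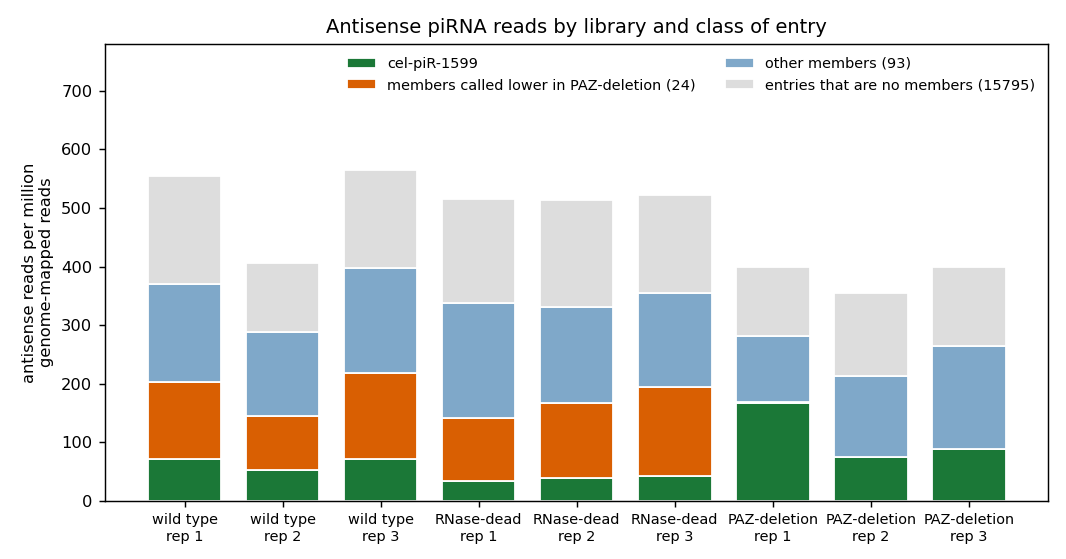
Antisense piRNA reads per 1000000 genome-mapped reads in each of the 9 libraries, as stacked bars that start at 0, divided into cel-piR-1599, the 24 members called lower in PAZ-deletion against wild type or RNase-dead, the other 93 members, and all 15795 entries outside the group. The 24 members sum to 93.5 to 147 RPM in wild type and 109 to 151 in RNase-dead and to 0 to 1.96 in PAZ-deletion, while the other classes keep visible bars in every library.

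By class, the 24 members called lower in PAZ-deletion had wild-type and RNase-dead sums of 124 ± 27.7 and 129 ± 21.0 RPM and a PAZ-deletion sum of 0.81 ± 1.02 RPM (SD, n = 3 per group), a sum that the calls themselves fix and that carries no test. The other 93 members, cel-piR-1599 left out, summed to 163 ± 19.05, 174 ± 18.6 and 142 ± 32.3 RPM. This sum is what remains once the members called lower are taken out, so the calls shape it as well. Entries outside the group summed to 156 ± 34.5, 176 ± 8.08 and 132 ± 12.3 RPM. The members called lower had 13 wild-type, 12 RNase-dead and 10 PAZ-deletion sense reads, too few to compare.

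In RNase-dead animals few members were called different from wild type in antisense rate, and members without a call may still differ. By edgeR 1 member was lower, 0 were higher and 117 were neither, while without adjustment 3 were lower and 1 higher at p under 0.05, where 0.787% of tested entries were lower and 0.0% higher, and sense counts gave 0.0937% lower and 2.06% higher (2.16% in all). DESeq2 with genome-mapped size factors called 0, and with median-ratio size factors 1. The median log2 fold change was 0.24 over members and 0.24 over all tested entries. RNase-dead lay wholly below wild type in 6 members, against 4.72% of tested entries, and wholly above in 5, against 5.51%. Of the 22 members with 50 or more reads, 20 had a pooled rate within 2-fold of wild type, and the 22 ran from 0.127 to 2.13 times wild type. A rate within 2-fold is not an unchanged one, as the counting interval of cel-piR-1599 was 0.492 to 0.665 times wild type. No share over all tested entries was computed for this limit.

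The member called was cel-piR-14696, and 1 wild-type library decided it. It was at 3.71, 30.7 and 9.93 RPM in wild type, 1.60, 2.82 and 0.430 in RNase-dead and 19.6, 4.73 and 6.52 in PAZ-deletion. Wild type replicate 2 and PAZ-deletion replicate 1 stood far above their groups, and all RNase-dead libraries were below all others. The log2 fold change of RNase-dead against wild type was -3.12 ± 0.60 (SE, edgeR FDR 3.16e-05), and it was called neither without wild type replicate 2 nor by DESeq2 with genome-mapped size factors. PAZ-deletion was higher than RNase-dead by 2.55 ± 0.62 on the log2 scale (SE, edgeR FDR 0.000548) and kept that call with each library left out in turn but not by DESeq2 with genome-mapped size factors (FDR 0.0543). PAZ-deletion overlapped wild type. In the same libraries the last segment of chromosome I, with 4 annotated ribosomal RNA genes, took 3.83 to 14.3% of genome-mapped reads in wild type, 1.64 to 2.62% in RNase-dead and 4.07 to 5.56% in PAZ-deletion. With that segment left out of the genome-mapped reads the log2 fold change of RNase-dead against wild type was -3.26 and stayed called (edgeR FDR 6.67e-06), and that of PAZ-deletion against wild type was -0.67 in place of -0.57, not called in either case.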

How the data were processed

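The deposited values were raw counts of sense and antisense reads per piRNAdb 1.7.6 entry and library, and raw counts per genome segment, per the file headers. FastQC 0.12.0 and cutadapt 3.7 were used, per the submitters' processing notes. The sources used here name no aligner, build or handling of reads with several matches, so entries with similar sequences may share reads. The total in the first row equalled each column sum and was left out of all tests.

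Members and lists were chosen with earlier results of these data known. Antisense counts were fitted in R 4.3.3 with edgeR 4.0.16 (glmQLFit, glmQLFTest), all 9 libraries together; the SE is the absolute log2 fold change over the square root of F. The fit was tested on simulated data. Depth was 1022428 to 3121968 genome-mapped reads. Intervals cover counting error only, and floors of 3 counts take the count of the other group as exact. Totals were compared by exact permutation of mean log2 values (SciPy 1.17.1). Alternatives were other scalings and filters, DESeq2 1.42.0, a replicate block and leaving out each library. Named entries were the 10 most read members, up to 20 called members with the largest fold changes, and those at the limits of the rule. As the labels do not tell whether replicates are separate cultures, the p-values reflect spread among these libraries, which may be technical. The deposited table of normalised totals was not used here.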

Additional observations from a re-analysis of the deposited data

How the results depend on the processing

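The counts of calls held within 1.5 times under most alternatives. For PAZ-deletion against wild type (22 calls) they fell to 14 with library sizes from piRNA reads, 11 with no filter beyond 1 read, where 1538 entries were tested, and 14 with a replicate block in a fit of the 2 groups, a fit added after seeing the data. For PAZ-deletion against RNase-dead (26 calls) they fell to 16 by DESeq2 with genome-mapped size factors, which gave 35 entries no FDR, to 13 with no filter and to 14 with the block in the fit of the 2 groups. The single RNase-dead call became 0 by DESeq2 with genome-mapped size factors and 0 with that block. With single libraries left out the counts ranged from 13 to 21, 0 to 1 and 14 to 30. Besides the scalings and fits named here the cause of these moves was not tested. Of the calls, 8 against wild type and 8 against RNase-dead held under all 19 alternatives. With all 9 libraries fitted, a replicate block gave 21, 1 and 25 calls; same-numbered libraries did not deviate together (correlations -0.158 to 0.193 over 127 entries), so the numbers were not taken as pairs. In the sign-flip test over same-numbered pairs of totals and shares, the differences were those reported and no p was below 0.25, the smallest that 3 pairs allow. TMM factors moved the median of all entries in RNase-dead against wild type from 0.24 to 0.09.

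The log2 difference of the antisense total turned to 0.80, -0.36 and 1.16 (PAZ-deletion against wild type, RNase-dead against wild type, PAZ-deletion against RNase-dead) when divided by all piRNA reads, which is the antisense share. For RNase-dead against wild type it turned from 0.04 to -0.083 without the last segment of chromosome I and to -0.12 without wild type replicate 2. With single libraries left out, these differences ranged from -0.54 to -0.31, -0.12 to 0.12 and -0.46 to -0.37, and those of the share from 0.70 to 0.88, -0.46 to -0.28 and 1.09 to 1.22.

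Fold changes of named entries that were called kept their sign in every alternative. Among fold changes that were not called, library sizes from piRNA reads turned cel-piR-10136 to 0.86 against wild type and 0.48 against RNase-dead in PAZ-deletion, cel-piR-14696 to 0.42 in PAZ-deletion against wild type, and cel-piR-5427, cel-piR-4830 and cel-piR-6514 to -0.24, -0.26 and -0.23 in RNase-dead against wild type. For cel-piR-5427 in RNase-dead TMM factors gave -0.044 and the denominator without the last segment of chromosome I gave -0.016. With single libraries left out, these uncalled log2 fold changes turned in sign. For RNase-dead against wild type they ranged from -0.42 to 0.046 for cel-piR-1090, -0.024 to 0.41 for cel-piR-5427, -0.25 to 0.42 for cel-piR-4830 and -0.23 to 0.52 for cel-piR-6514. For PAZ-deletion against wild type they ranged from -0.28 to 0.70 for cel-piR-5427, -0.29 to 0.48 for cel-piR-4830 and -1.35 to 0.47 for cel-piR-14696. For PAZ-deletion against RNase-dead they ranged from -0.38 to 0.59 for cel-piR-5427 and -0.46 to 0.46 for cel-piR-4830. A minimum of 5 or 20 antisense reads gave 237 or 66 members. Members with 10 to 19 reads, 52 of 118, had few reads per library, which limits their calls.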
